A study of Mus musculus with 12 samples.

Results

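The Egr transcription factors and the Nab corepressors that bind them were followed in hippocampal polyribosomal RNA. The family was taken by gene symbol as Egr1, Egr2, Egr3, Egr4, Nab1 and Nab2, which are 6 of the 24421 genes in the count files, and all 6 passed the filter on low counts. The data are 12 RNA-seq libraries, 6 labelled fear case and 6 labelled control, from hippocampi of C57/Bl6 mice aged 6 weeks. RNA that pelleted through a sucrose cushion, which holds ribosome-bound transcripts and other RNA that sediments as fast, was sequenced as 40 bp read pairs. The protocol text is the same for both groups and has the mice in a new context for 8 min, then 7 min in the home cage, with tissue taken at 15 min. It does not say how the controls were handled, and whether the fear case mice received a shock is not given. No genotype or transgene is named, and the labels leave unsaid whether every library is a different animal. The p-values therefore cover library-to-library spread, which may be technical.

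Egr proteins are zinc finger transcription factors that bind GC-rich sites, and in neurons their genes are immediate early genes, switched on by synaptic activity through ERK kinase signalling, the serum response factor with its Elk partners, and CREB. Egr1 is needed for the late phase of long-term potentiation and for the storage of hippocampal memory in mice. Nab1 and Nab2 have no DNA-binding domain of their own and are recruited by Egr proteins, where they repress transcription, in part through the chromatin remodelling complex NuRD. Nab2 is itself an Egr target in cultured cells and so closes a negative feedback loop.

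The sequence just upstream of the transcription start is shown for 3 members, because it carries the elements through which activity acts on early genes. These 3 were the only members with a window that could be used, and they were not picked by fold change. The sequences are the 250 bases before 1 RefSeq start per gene (GRCm38.p6). They lie at chr10:67537619-67537868 on the plus strand for Egr2, chr6:85513590-85513839 on the minus strand for Egr4 and chr10:127666704-127666953 on the minus strand for Nab2. Each is written 5′ to 3′ along the gene. Capitals mark matches, on either strand, to the CArG box bound by the serum response factor, to the cAMP response element core TGACG bound by CREB, to the Egr site GCGNGGGCG and to TATAA.
Egr2: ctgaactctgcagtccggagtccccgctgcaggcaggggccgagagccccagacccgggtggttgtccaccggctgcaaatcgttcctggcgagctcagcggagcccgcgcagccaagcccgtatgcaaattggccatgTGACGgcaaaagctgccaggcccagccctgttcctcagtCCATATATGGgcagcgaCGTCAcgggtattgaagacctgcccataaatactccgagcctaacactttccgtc
Egr4: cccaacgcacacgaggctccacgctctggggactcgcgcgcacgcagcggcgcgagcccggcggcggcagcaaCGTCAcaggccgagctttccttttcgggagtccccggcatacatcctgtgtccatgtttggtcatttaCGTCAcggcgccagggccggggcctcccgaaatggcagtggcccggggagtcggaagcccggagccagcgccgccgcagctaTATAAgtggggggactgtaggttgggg
Nab2: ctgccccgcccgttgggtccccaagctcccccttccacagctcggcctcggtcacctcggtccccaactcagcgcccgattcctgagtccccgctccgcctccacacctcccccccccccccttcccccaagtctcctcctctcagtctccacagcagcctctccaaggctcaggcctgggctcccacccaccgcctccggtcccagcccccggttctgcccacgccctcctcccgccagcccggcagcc
The Egr2 sequence held 1 CArG box, 72 to 63 bases before the start, and 2 such cores, at 111 to 107 and 55 to 51 bases. The Egr4 sequence held 2 such cores, at 177 to 173 and 109 to 105 bases before the start, and 1 TATAA match at 27 to 23 bases. No match to any of the 4 motifs was found in the Nab2 window, and none overlapped another. Of 32851 such windows in the RefSeq table, 1.47% held a CArG box, 17.8% a TGACG core, 4.7% an Egr site and 22.8% a TATAA match. A match is a description of the letters and not evidence of binding. Other RefSeq starts of Egr2 are not shown. The Nab2 window lies inside the annotated gene, whose 5′ end on the minus strand is base 127668568, so sequence upstream of that end was not searched. The Nab1 window lay mostly inside an annotated exon and is not shown, and Egr1 and Egr3 had no window in the table.

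The libraries held 18.6 M to 44.2 M counts assigned to genes, the median being 21.6 M, and between 17035 and 18940 genes had at least 1 count. Fear case 6 stood apart. It was the deepest library, ahead of 24.2 M in the next, and Rn45s, the ribosomal RNA precursor, took 12.5% of its counts, against 4.55% to 7.98% in the other 11. The mean log2 CPM of 12 choroid plexus markers was -1.36 to 2.77 in fear case 1 to 5 and 4.32 in fear case 6, against 3.6 to 4.67 in the controls. When this score entered edgeR's fit, the log2 fold change of Egr1 was 0.71 (SE 0.17, adjusted p = 0.37). That of Egr2 was 1.91 (SE 0.50, adjusted p = 0.561). Because fear case 1 to 5 all scored below every control, this fit cannot separate the score from the group. Markers of motile cilia, which ependymal cells carry, summed to 22 to 26.8 CPM in fear case and 31.4 to 40.1 CPM in controls. Of 5 tested, 1 was called lower by edgeR, Tekt1 (log2 fold change -1.02, SE 0.20, adjusted p = 0.0483), and 3 were called by DESeq2. Of all genes, edgeR called 0.103% and DESeq2 0.377% in either direction. Foxj1 and Rsph4a stood at -0.66 and -0.70, Dnah11 at -0.39 and Ccdc153 at 0.12. Levels of Tekt1, Dnah11 and Ccdc153 overlapped between the groups. The part of choroid plexus and ependymal cells in the Egr values was not tested. Markers of dentate granule cells, CA1 and CA3 pyramidal cells summed to 242 to 297, 353 to 405 and 224 to 278 CPM in fear case and 213 to 267, 359 to 422 and 201 to 309 CPM in controls. No member of these 3 hippocampal lists passed the test.

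Setting fear case against control addresses how the polyribosomal level of each gene differed at the stated collection time. Egr1 and Egr2 had the largest differences, with fear case levels 1.5-fold and 3.1-fold those of controls, and Egr4 stood at 1.31-fold. Egr3 and Nab1 stood at 1.08-fold, and Nab2 averaged 41 ± 4.79 CPM (counts per 1000000 gene counts, scaled for library composition) in fear case and 40.9 ± 4.35 CPM in controls (SD, n = 6 each). None of the 6 members passed an adjusted p of 0.05 in edgeR's quasi-likelihood test over 14564 genes, which called 0.103% of them (0.0481% as higher in fear case). Without adjustment, 3 members (Egr1, Egr2 and Egr4) had a p under 0.05, against 7.14% of all genes (2.62% with a positive log2 fold change). All 6 members had a positive log2 fold change, as did 48.6% of genes tested, and their median was 0.25, against -0.00 over all genes. The sign of Nab2 (0.0019) is not stable, since it was negative in 8 of 20 alternative settings. In bulk tissue, a higher level per cell and more cells that carry the transcript cannot be told apart, and without input RNA neither can transcript amount and ribosome association.

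**Figure D1:**
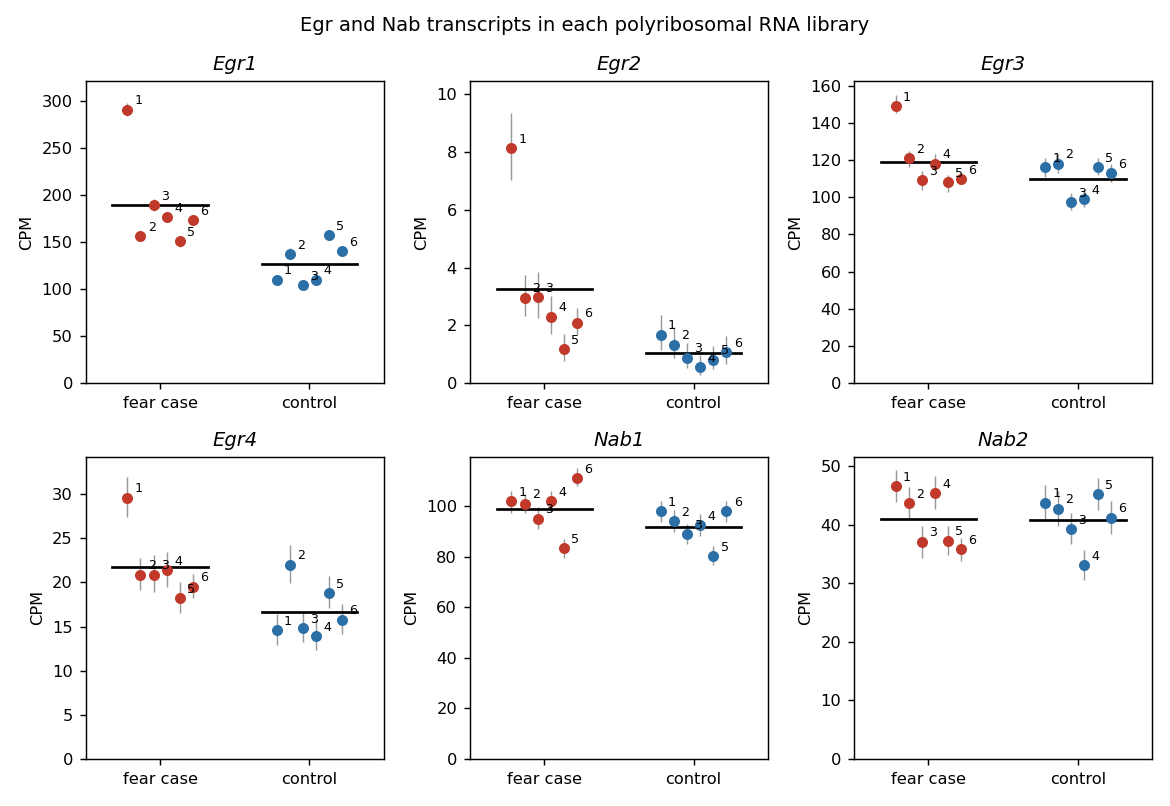
Level of each member in CPM (vertical axis from 0) in the 6 fear case and 6 control libraries. Points are libraries with their replicate number, grey bars are 95% counting intervals and black lines are group means. Fear case 1 is the highest fear case library for all 4 Egr genes, at 290.4 CPM for Egr1 and 8.13 CPM for Egr2.

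Egr1 ranged from 150.4 to 290.4 CPM with a median of 175 in fear case libraries, and from 104 to 157 CPM with a median of 124 in controls. The groups overlapped through fear case 2 and fear case 5, at 156 and 150.4 CPM, which lay below the highest control, control 5, at 157 CPM. The other 4 fear case libraries lay above every control, and 5 of the 6 controls lay below every fear case library. The mean was 189 ± 51.6 CPM in fear case and 126 ± 21.6 CPM in controls (SD, n = 6 each). The log2 fold change was 0.58 (SE 0.13), with an unadjusted p of 0.000231 and an adjusted p of 0.108 in edgeR's test, and 152 of the 14564 genes had a larger one. Without fear case 6, a fit that called 0.873% of genes (0.0818% as higher in fear case and 0.791% as lower), the value was 0.61 (SE 0.14) and passed at an adjusted p of 0.0297. Without fear case 1 it was 0.42 (SE 0.10, adjusted p = 0.114), and the mean of the other 5 fear case libraries was 169 ± 15.7 CPM. The gene occupies bases 34859823 to 34864984 of chromosome 18, plus strand (GRCm38), and no exon of another gene overlaps its exons, which is also true of Egr2, Egr3, Egr4 and Nab1.

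Egr2, known in mice for its roles in hindbrain patterning and in myelination by Schwann cells, was the least abundant member. It had 26 to 191 counts per library in fear case and 11 to 33 in controls. Its level ran from 1.17 to 8.13 CPM with a median of 2.63 in fear case, and from 0.553 to 1.68 CPM with a median of 0.977 in controls. All fear case libraries but fear case 5 lay above every control, a separation of at least 5 libraries that 1.11% of tested genes showed. Fear case 5, at 1.17 CPM with a 95% counting interval of 0.766 to 1.72 (Clopper-Pearson), could not be told from control 1 at 1.68 CPM with an interval of 1.16 to 2.36. The means were 3.27 ± 2.47 CPM in fear case and 1.05 ± 0.402 CPM in controls (SD, n = 6 each). The log2 fold change of 1.63 (SE 0.39) was exceeded by 2 tested genes, Fos and Npas4, but with edgeR's unadjusted p of 0.000368 its adjusted p was 0.141.

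The call on Egr2 depended on the library and the method. DESeq2, which called 0.377% of genes (0.0803% as higher in fear case), called Egr2 alone among the members, at a log2 fold change of 1.64 (adjusted p = 0.01). Without fear case 6, edgeR called it at 1.74 (SE 0.40, adjusted p = 0.034). Without the filter on low counts, edgeR called 0.171% of genes (0.0509% as higher in fear case) and both Egr2 (adjusted p = 0.046) and Egr1 (adjusted p = 0.0284). limma-voom, which called 0.0824% of genes (0.0481% as higher in fear case), called no member. Without fear case 1 the log2 fold change of Egr2 was 1.12 (SE 0.33, adjusted p = 0.309), and the other 5 fear case libraries averaged 2.3 ± 0.745 CPM.

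Egr4, which in mice is needed for male germ cell maturation, had 18.2 to 29.6 CPM with a median of 20.9 in fear case, and 13.9 to 22 CPM with a median of 15.3 in controls. Only fear case 1 lay above every control, because control 2 reached 22 CPM, and 4 of the 6 controls lay below every fear case library. The means were 21.8 ± 4 and 16.7 ± 3.13 CPM for fear case and control (SD, n = 6 each), and the log2 fold change was 0.38 (SE 0.13, unadjusted p = 0.00667, adjusted p = 0.435 with edgeR). Leaving out fear case 1 gave 0.27 and leaving out control 2 gave 0.48.

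Egr3, which in mice is needed for muscle spindle formation and for hippocampal long-term potentiation, did not separate the groups. It had 108 to 149 CPM with a median of 114 in fear case, against 97.3 to 118 CPM with a median of 114 in controls. Its log2 fold change was 0.12 (SE 0.08, adjusted p = 0.795 with edgeR), which gives a 95% interval of 0.97-fold to 1.21-fold. Without fear case 1 it was 0.04. These bounds do not show that Egr3 was equal in both groups, but they lie below the 1.5-fold estimate of Egr1. The 95% interval of Egr1 was 1.25-fold to 1.79-fold, and without fear case 1 its log2 fold change was 0.42. Whether the change differed between Egr1 and Egr3 was not tested.

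Neither corepressor transcript separated the groups. Nab1 had 83.3 to 111 CPM in fear case and 80.3 to 98.1 CPM in controls, with medians of 101 and 93.3 CPM. The groups overlapped, with 4 fear case libraries above every control. Its log2 fold change was 0.11 (SE 0.07, adjusted p = 0.793 with edgeR), or 0.975-fold to 1.19-fold as a 95% interval. Nab2 had 35.8 to 46.6 CPM with a median of 40.5 in fear case, and 33.1 to 45.2 CPM with a median of 42 in controls. Its log2 fold change was 0.0019 (SE 0.09, adjusted p = 0.996 with edgeR), with an interval of 0.885-fold to 1.13-fold. Exons of Nab2 overlap exons of Gm16229 over 1050 bases, Nemp1 over 151 and Stat6 over 40, all on the opposite strand (GRCm38, chromosome 10, 127660918 to 127668568). The sources used here do not give the strand setting of the counting, so reads from those stretches cannot be assigned to 1 gene. Stat6 is in the count files, while Gm16229, whose overlap is 35.7% of the Nab2 exon length, and Nemp1 are not under those symbols. Whether their reads were added to Nab2 was not tested. The per-kilobase levels and the ratios that use Nab2 share this limit.

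**Figure D2:**
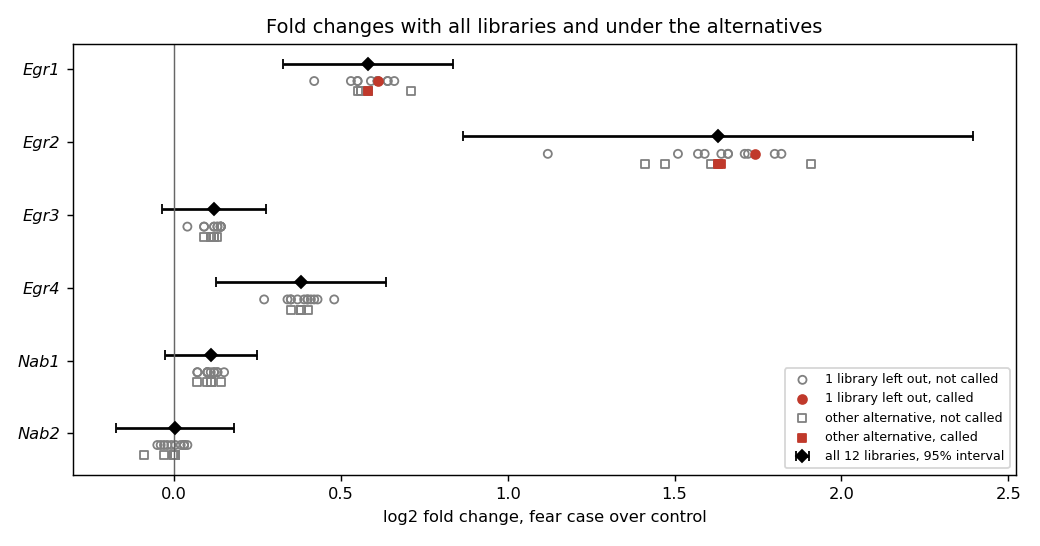
Log2 fold change of fear case over control for each member. Diamonds with bars are the estimate and 95% interval with all 12 libraries, circles leave out 1 library and squares are the other alternatives, filled red where the adjusted p was under 0.05. Red symbols appear only for Egr1 and Egr2, and the values of Nab2 lie between -0.09 and 0.04.

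Per kilobase of annotated exon, the members spanned a wide range of abundance. Egr1 was the highest, with 42.2 ± 11.5 CPM per kilobase in fear case and 28.2 ± 4.81 in controls. In fear case, Egr1 ran from 33.5 to 64.8 CPM per kilobase, Egr3 from 24.4 to 33.9 and Nab1 from 20.3 to 27.2, and in controls they ran from 23.1 to 35.1, 22.1 to 26.7 and 19.6 to 23.9. Compared within a library, Egr1 lay above Nab1 in all 12, and above Egr3 in 6 of 6 fear case libraries and 5 of 6 controls, control 1 being the exception. Egr3 lay above Nab1 in 5 of 6 libraries of each group, so these neighbours were close. Nab2 followed at 13.9 ± 1.63 CPM per kilobase in fear case and 13.9 ± 1.48 in controls, then Egr4 at 10.1 ± 1.86 and 7.76 ± 1.46. Nab2 lay above Egr4 in each of the 12 libraries, the closest pair being 15.8 and 13.8 CPM per kilobase in fear case 1. Egr2 lay far below, at 0.963 ± 0.727 CPM per kilobase in fear case and 0.31 ± 0.118 in controls (SD, n = 6 each throughout). Among 14001 tested genes with an annotated length, Egr1 stood at percentile 91.3 of mean level and Egr2 at 15.5.

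The make-up of the Egr pool is given without a test. Egr1 held 52.1 ± 3.07% of the summed Egr level per kilobase in fear case and 45.9 ± 2.78% in controls, while Egr3 held 34.1 ± 3.03% and 41 ± 2.71%. Both shares overlapped between the groups, with Egr1 at 47.8% to 56.4% in fear case and 42.2% to 49.8% in controls. Egr4 held 12.7 ± 0.483% in fear case and 12.7 ± 1.35% in controls, and Egr2 1.11 ± 0.534% and 0.509 ± 0.197%. The summed level of the 4 genes was 66.8 to 115 CPM per kilobase in fear case and 52.4 to 70.5 in controls.

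Ratios taken within a library do not depend on how libraries were scaled. The ratio of Egr1 to Nab2 per kilobase was 4.09, 2.33, 3.34, 2.55, 2.65 and 3.18 in fear case 1 to 6, and 1.64, 2.1, 1.73, 2.18, 2.28 and 2.23 in control 1 to 6. The fear case and control ratios did not overlap, by a narrow margin between fear case 2 and control 5. Of the other tested genes set over Nab2 in the same way, 0.0824% separated the groups in this direction. The ratio of Egr1 to Egr3 had a median of 1.51 in fear case (1.27 to 1.91) and 1.12 in controls (0.933 to 1.33), with 5 fear case libraries above all controls, a separation that 0.172% of genes showed over Egr3. The ratio of Nab2 to Nab1 was 0.448 to 0.64 in fear case and 0.499 to 0.785 in controls, with medians of 0.613 and 0.62. The ratio of Egr2 to Egr1 was 0.0103 to 0.0369 in fear case and 0.00665 to 0.0202 in controls, with 3 fear case libraries above all controls. For Egr4 to Egr1 it was 0.213 to 0.28 and 0.236 to 0.335, with 0 above. All these ratios were chosen with the members' values known and are given without a test.

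**Figure D3:**
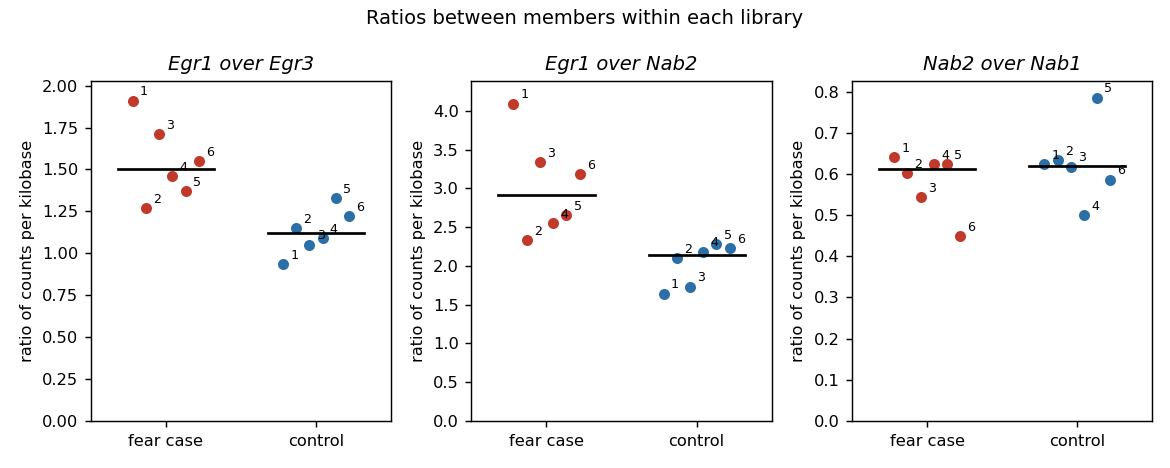
Ratios of counts per kilobase between 2 members in each library (vertical axes from 0), with replicate numbers and black lines at group medians. The Egr1 to Nab2 ratio is 2.33 or more in every fear case library and 2.28 or less in every control, while the Nab2 to Nab1 ratios overlap.

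The Egr genes shared their highest and lowest fear case libraries, while the order of the other 4 differed between genes. Fear case 1 was the highest of its group for all 4 Egr genes and for Nab2, and fear case 5 was the lowest for all 4 Egr genes and for Nab1. Relative to the mean of the other 5 fear case libraries, fear case 1 stood at 1.72-fold for Egr1, 3.53-fold for Egr2, 1.32-fold for Egr3 and 1.46-fold for Egr4. For the corepressors the same ratio was 1.03-fold for Nab1 and 1.17-fold for Nab2. The highest control was control 5 for Egr1, control 1 for Egr2 and control 2 for Egr3 and Egr4.

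The early genes Fos, Arc, Nr4a1 and Npas4, outside the family, were also highest in fear case 1. Fos had 33.7 CPM there and 12.1 to 21.7 CPM in fear case 2 to 6, and Arc had 197 CPM there and 125 to 154 CPM in the others, both with their lowest fear case value in fear case 5. Nr4a1 had 55.7 CPM in fear case 1 and its lowest fear case value, 33.8 CPM, in fear case 5. Npas4 had 28.9 CPM in fear case 1, but its lowest value, 17.5 CPM, was in fear case 3, with 17.7 CPM in fear case 5. In fear case 1 the dentate granule cell markers summed to 297 CPM, against 242 to 284 CPM in fear case 2 to 6 and 213 to 267 CPM in controls. The other neuronal lists did not move with them. CA3 pyramidal cell markers summed to 224 CPM there, against 226 to 278 CPM and 201 to 309 CPM. CA1 pyramidal cell markers (372 CPM) and GABAergic interneuron markers (539 CPM) lay within the range of the other libraries. Oligodendrocyte markers summed to 1621 CPM there, against 1937 to 2415 CPM and 1781 to 2396 CPM. Microglia markers summed to 40.9 CPM, against 52.2 to 72 CPM and 45.9 to 82.5 CPM, and endothelial markers to 7.49 CPM, against 8.16 to 15.3 CPM and 10.6 to 14.4 CPM. Astrocyte markers summed to 345 CPM, against 355 to 457 CPM and 358 to 470.2 CPM, and motile cilia markers to 22 CPM, against 22.9 to 26.8 CPM and 31.4 to 40.1 CPM. Their part in the Egr values of fear case 1 was not tested. Cortex and striatum markers (164 CPM) and thalamus markers (132 CPM) in fear case 1 lay within the range of the other libraries.

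**Figure D4:**
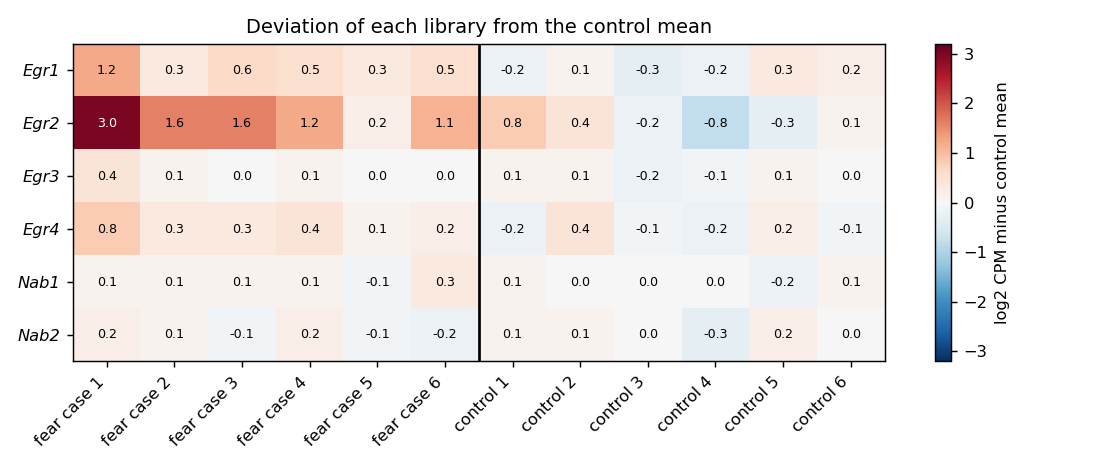
Log2 CPM of each member (rows) in each library (columns, fear case left of the black line) minus the mean log2 CPM of the 6 controls. Fear case 1 stands at 1.2 for Egr1 and 3.0 for Egr2 and fear case 5 at 0.3 and 0.2, while the Nab1 and Nab2 rows stay between -0.3 and 0.3.

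Profiles over the 12 libraries were compared with those of 13503 other genes averaging 1 CPM or more, by the root mean square difference of log2 CPM centred on each gene's mean. This is a description of shared level patterns, in which libraries and group differences are shared by construction. The gene nearest to Egr1 was Nr4a1, an orphan nuclear receptor gene of the early response, at a difference of 0.16 on the log2 scale, and the next was Egr4 at 0.17. Nr4a1 had 40.4 ± 7.78 CPM in fear case and 31.9 ± 4.78 CPM in controls, and its log2 fold change was 0.34 (SE 0.12, adjusted p = 0.452 with edgeR). Nearest to Egr4 were Nop2, which encodes a nucleolar RNA methyltransferase, and Nr4a1, both at 0.15, followed by Egr1. Nearest to Egr2 were Fosb and Arc, at 0.55 and 0.62, but its own profile varied by 1.00 (SD, log2 CPM), so these are loose matches. Nearest to Egr3 were the actin-binding genes Coro2a and Ablim3, both at 0.07, while Nab2 ranked 95th. In this measure Egr1 ranked 3rd from Egr4 and 8723rd from Egr3, while Egr3 ranked 87th from Egr1 and 12th from Egr4. Ranks differ by direction because the measure depends on how widely profiles vary. The SD of log2 CPM was 0.41 for Egr1 and 0.16 for Egr3.

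Among the signalling genes that act upstream of Egr transcription, none was called. Of 20 tested genes of the ERK, Elk and SRF list, 0 passed in either direction with edgeR, and none by DESeq2 or limma-voom. In edgeR's fit 2 had an unadjusted p under 0.05, against 7.14% of all genes tested, of which 0.103% were called. The median log2 fold change was -0.02 and 9 were positive, against -0.00 and 48.6% over all genes. Braf, a kinase that activates the MEK kinases, averaged 265 ± 13.5 CPM in fear case and 237 ± 12.5 CPM in controls (log2 fold change 0.16, SE 0.06, adjusted p = 0.559). For Map2k2, a MEK kinase gene, the log2 fold change was -0.16 (SE 0.07, adjusted p = 0.662). Srf and Elk1 themselves stood at -0.06 and 0.00.

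Of 20 tested genes reported as Egr targets, 1 passed with edgeR, Arc, and 19 did not, where edgeR called 0.103% of all genes. The median log2 fold change was -0.04 and 9 were positive, against -0.00 and 48.6% over all genes. Arc, a postsynaptic gene that Egr1 and Egr3 bind, rose by 0.80 (SE 0.10, adjusted p = 0.000356 with edgeR), with 125 to 197 CPM in fear case and 71.4 to 107 CPM in controls. The groups did not overlap, as for 0.268% of genes with every fear case library above every control. Arc is an immediate early gene in its own right, so its place on the list says nothing of the route. Igf2, the growth factor gene, averaged 48.5 ± 28.2 CPM in fear case and 89.6 ± 14.5 CPM in controls, and its log2 fold change was -0.88 (SE 0.22, adjusted p = 0.18 with edgeR). It passed without fear case 6 at -1.26 (SE 0.13, adjusted p = 1.11e-05), and adding the choroid plexus score to the fit gave -0.26 (SE 0.18, adjusted p = 0.764). Its highest fear case value, 104 CPM, was in fear case 6. The choroid plexus score of that library lay within the control range, and the scores of fear case 1 to 5 lay below it. The fit with the score therefore cannot separate score from group. The part of choroid plexus cells in the Igf2 values was not tested. The log2 fold change was 0.17 for Gabra4, a GABA receptor subunit gene regulated by Egr3 (SE 0.10, adjusted p = 0.757), and -0.31 for the adhesion receptor gene Cd44 (SE 0.17, adjusted p = 0.742). The synapsin genes Syn1 and Syn2 stood at 0.01 and 0.08, the postsynaptic scaffold gene Dlg4 at -0.03 and Cdk5r1, the activator of a neuronal kinase, at 0.03.

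Of 13 tested NuRD genes, 0 passed with edgeR, DESeq2 or limma-voom, and 0 had edgeR's unadjusted p under 0.05. Over all genes tested, edgeR called 0.103%, and 7.14% had an unadjusted p under 0.05. The median log2 fold change of the NuRD genes was -0.00, and 5 were positive, against 48.6% of all genes. Chd4, the remodelling subunit contacted by Nab2, averaged 216 CPM in fear case and 209 CPM in controls (log2 fold change 0.04, SE 0.08, adjusted p = 0.937). Hdac2, Mbd3 and Mta1, a deacetylase and 2 scaffold subunits, stood at 0.09, -0.09 and -0.05. Of 5 tested zinc finger genes whose proteins bind GC-rich sites, 0 passed with edgeR, DESeq2 or limma-voom, with 1 at an unadjusted p under 0.05. That gene was Maz, whose log2 fold change was -0.18 (SE 0.08, adjusted p = 0.613). Sp4 and Sp2 stood at 0.13 and -0.12. The sixth gene of that list, Wt1, a close relative of the Egr zinc fingers, was too low to be tested.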

How the data were processed

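Gene counts of 6 fear case and 6 control libraries of hippocampal polyribosomal RNA were deposited by the authors as whole-number counts per gene symbol. Per the submitters' processing notes, cutadapt, TopHat, Bowtie and HTSeq were used with mm10; the sources used here give no versions, annotation or strand setting. The 5 counter summary rows were left out of library sizes (reads in no gene 25.5% to 33.3%, ambiguous 0.453% to 0.55%).

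Counts were tested with edgeR 4.0.16 in R 4.3.3 (filterByExpr with a minimum count of 10 and a minimum total of 15, TMM scaling, quasi-likelihood test), with Benjamini-Hochberg adjustment over all 14564 genes and a threshold of 0.05. The SE is the log2 fold change over the square root of F. Intervals of fold changes are the log2 estimate ± 1.96 SE. This normal approximation gives narrower bounds than the quasi-likelihood test would. Alternatives were DESeq2 1.42.0, limma-voom (limma 3.58.1), other scalings, no filter, a choroid plexus score as covariate, a replicate block and leaving out each library. Levels per kilobase use GENCODE vM21 union exon lengths (GRCm38). Intervals of counts are exact at 95% and cover counting error only; gene counts were 18.6 M to 44.2 M per library. None of the 30 within-group pairs of libraries agreed within sampling noise.

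The members and lists were chosen with earlier results of these data known. Named genes are the members, the called and lowest-p genes of each list (3, or 4 for reported targets) and the 2 nearest profiles of each Egr gene. Fos, Npas4, Tekt1, Foxj1, Rsph4a, Dnah11, Ccdc153, Srf, Elk1, Chd4, Syn1, Syn2, Dlg4 and Cdk5r1 were named after their values were seen. Samples of the same replicate number correlated at -0.171 to 0.0468 and were not treated as pairs. A few genes of the lists are not reported here.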

Additional observations from a re-analysis of the deposited data

Results flagged for a closer look

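Fear case 1 stood far above the other 5 fear case libraries for each of the 4 Egr genes. Its level was 290.4 CPM for Egr1, 8.13 CPM for Egr2, 149 CPM for Egr3 and 29.6 CPM for Egr4. The gap to the next library was 0.73, 0.74, 0.69 and 0.72 of the group's CPM range, above Dixon's 95% critical value for 6 samples. In log2 CPM minus the control mean, Egr2 stood at 3.0 in fear case 1, 1.6 in the next and 0.2 in the lowest. There the gap is a smaller part of the range, and Dixon's test was not run on that scale. Chance flags about 1 in 20 groups, 12 groups were examined, and the 4 flags come from the same library, so they are not independent.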

How the results depend on the processing

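Over 20 alternatives, the log2 fold change stayed positive for Egr1 (0.42 to 0.71), Egr2 (1.12 to 1.91), Egr3 (0.04 to 0.14), Egr4 (0.27 to 0.48) and Nab1 (0.07 to 0.15). Egr1 passed in 2 alternatives, without the filter (0.58) and without fear case 6, and Egr2 in 3, without the filter (1.63), with DESeq2 (1.64) and without fear case 6. Leaving out 1 library gave 0.42 to 0.66 for Egr1, 1.12 to 1.82 for Egr2 and -0.05 to 0.04 for Nab2. Nab2 also turned negative with library totals (-0.03), limma-voom (-0.0038) and the choroid plexus covariate (-0.09), against 0.0019. The 15 genes called became 33 with library totals, 37 without the filter, 61 with DESeq2 and 5 with the covariate, and 9 to 128 with 1 library left out (9 without fear case 2 or control 3, 128 without fear case 6). Reported Egr targets called became 2, against 1, with library totals, without the filter, with the replicate block and without fear case 6. The cause was not tested. With the replicate block, 18 genes were called, and Egr1 stood at 0.56 (adjusted p = 0.184), Egr2 at 1.47 (0.0861), Egr3 at 0.11, Egr4 at 0.38, Nab1 at 0.10 and Nab2 at 0.0004. Same-numbered libraries correlated at -0.171 to 0.0468, and 0 of 6 correlated best with its own number. Egr2 had 11 to 33 counts per control library.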
